A study of Caenorhabditis elegans with 22 samples.

Results

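Worms that carry the ced-4(n1162) mutation were compared with untreated wild type worms of the Bristol N2 strain on Affymetrix arrays of the nematode Caenorhabditis elegans. The arrays were chosen by their titles and number 7 of the 22 in the series, 3 of ced-4 and 4 of wild type. Levels are deposited log2 values, so a difference of 1 is a 2-fold change. The comparison was described across 9647 genes, separated into 194 genes of the cuticle and of molting, of 308 such genes on the array, and 9453 other genes. To ask whether the ced-4 difference recurs in other genotypes, nuo-6(qm200);ced-4(n1162) was set against nuo-6(qm200), and isp-1(qm150) ced-4(n1162) against isp-1(qm150), with 3 arrays in each of these groups. The nuo-6 mutation lies in a subunit of respiratory chain complex I and the isp-1 mutation in the iron-sulfur protein of complex III. Wild type worms given 0.1 mM paraquat, on 3 arrays, entered the estimate of the spread and are shown for their levels only.

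All worms were hermaphrodites of the Bristol N2 background, laid within 4 hours and collected by hand at the young adult stage. The labels give no hours of growth, so the age within young adulthood of each group is not known. The comparison uses a single ced-4 allele. RNA came from whole worms, in which fewer cells of a type and less RNA per cell cannot be told apart. The submitters call the repeats biological but do not say that they came from separate cultures, so p-values measure the spread between these samples, which may be partly technical.

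CED-4 is the worm counterpart of the mammalian adaptor Apaf-1. In cells set to die it is released from CED-9 and activates the caspase CED-3, and worms without CED-4 function keep cells that would otherwise be lost. The cuticle is the collagen exoskeleton that the hypodermis, the outer epithelium, secretes and replaces at each larval molt. Its collagen genes, and the proteases, zona pellucida proteins and hedgehog-related proteins that build and shed it, are known to be transcribed in waves within each molting cycle. A further set of cuticle genes is expressed in adults, among them col-19.

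The ced-4 arrays were very alike, with correlations between them of 0.9951 to 0.9958 over the tested probe sets, whereas the wild type arrays correlated at 0.9451 to 0.9839. The median SD between arrays was 0.124 in ced-4 and 0.298 in wild type. Wild type replicate 1 was the nearest to the ced-4 arrays, with correlations of 0.9625 to 0.9644, and wild type replicate 3 the farthest, with 0.9186 to 0.9202. With the other wild type arrays replicate 1 correlated at 0.9451 to 0.9735 and replicate 3 at 0.9451 to 0.9733.

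The mutated gene itself lies on chromosome III, with the sequence name C35D10.9. Its transcript stood at 5.62, 5.89 and 5.66 on the ced-4 arrays, against 7.71, 7.93, 7.51 and 7.32 on the wild type arrays. All 3 mutant arrays lay below all 4 wild type arrays, with a difference of -1.89 (SE 0.16, adjusted p = 8.23e-08). Every ced-4 value was still above 3.68, the median of the deposited table, which served as the filter level. Values below it are called background here. The nearest tested genes beside ced-4 were not called: F26A1.1 on one side differed by -0.15 (adjusted p = 0.603) and C35D10.8 on the other by -0.38 (adjusted p = 0.414).

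Over the whole array, 1999 of 12639 probe sets passed an adjusted p of 0.05, or 15.8%, of which 823 were higher (6.51%) and 1176 lower (9.3%) in ced-4. Counted by gene, 677 genes were higher (7.02% of those tested) and 759 lower (7.87%). Cuticle and molting genes accounted for 111 of the higher genes and 13 of the lower ones, so that 57.2% of the 194 tested rose and 6.7% fell. Among the 9453 other genes 566 rose, or 5.99%, and 746 fell, or 7.89%. The gene lists were chosen with earlier results of these data known, so these shares describe the class and were not tested against each other. The median difference was 0.76 over the cuticle and molting genes, -0.05 over the other genes and -0.04 over all genes. In 207 of the 566 other genes that rose, the wild type mean was below the filter level. With no filter 806 other genes were called higher and 743 lower, so the balance of rises and falls among them depended on the filter.

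These counts leaned on single arrays. Without wild type replicate 1 the number of called probe sets was 3404, and 1956 of the 1999 were among them in the same direction. Without ced-4 replicate 1, 2 or 3 it was 1275, 1163 or 1221, and without wild type replicate 4 the number of lower probe sets was 689. The counts of other genes moved with them: 925 rose and 1411 fell without wild type replicate 1, and 318 to 388 fell without a ced-4 array. The count of lower other genes was 496 without wild type replicate 2 and 400 without wild type replicate 4. Against these shifts, the number of cuticle and molting genes that rose stayed between 102 and 124 when each of the 7 arrays was left out in turn. With the mean level of the molting genes on each array as a covariate, limma called 11 probe sets, all higher, among them lys-10, dbd-20, gmap-3, dct-5 and nas-27, with none lower but 326 lower at an unadjusted p under 0.05. That level was 5.97 to 6.10 on the ced-4 arrays and 4.49 to 4.81 on the wild type arrays, without overlap, and the median standard error was 0.832 with the covariate and 0.198 without it, so a ced-4 difference and a difference in molting gene level cannot be told apart in this fit. Outside the cuticle, molting, hedgehog-related, abu and lysozyme lists, many of the list counts given below moved with single arrays too. Each list count for ced-4 against wild type is to be read beside the 7.02% of all genes called higher and the 7.87% called lower.

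**Figure D1:**
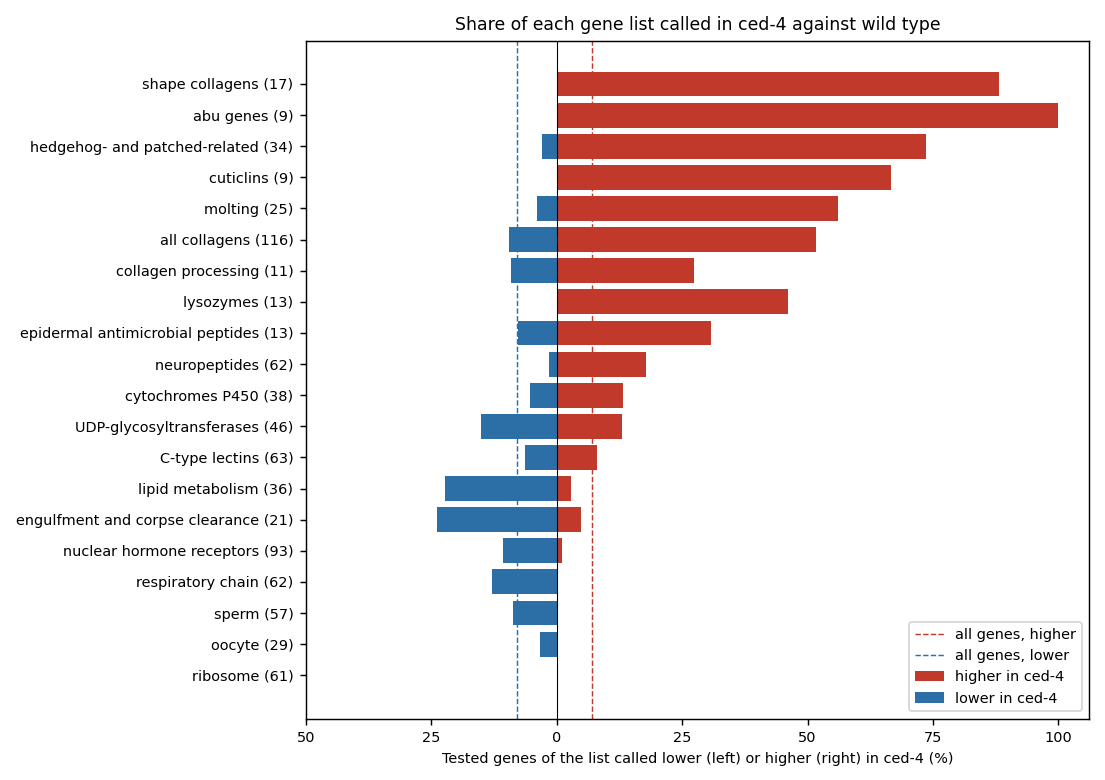
Percent of the tested genes of each list that were called higher (red, to the right) or lower (blue, to the left) in ced-4 against wild type, with the number tested in brackets and dashed lines at 7.02% and 7.87% for all genes. The lists of cuticle, molting, hedgehog-related and abu genes and the lysozymes extend far to the right, and the ribosome list shows no bar.

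**Figure D2:**
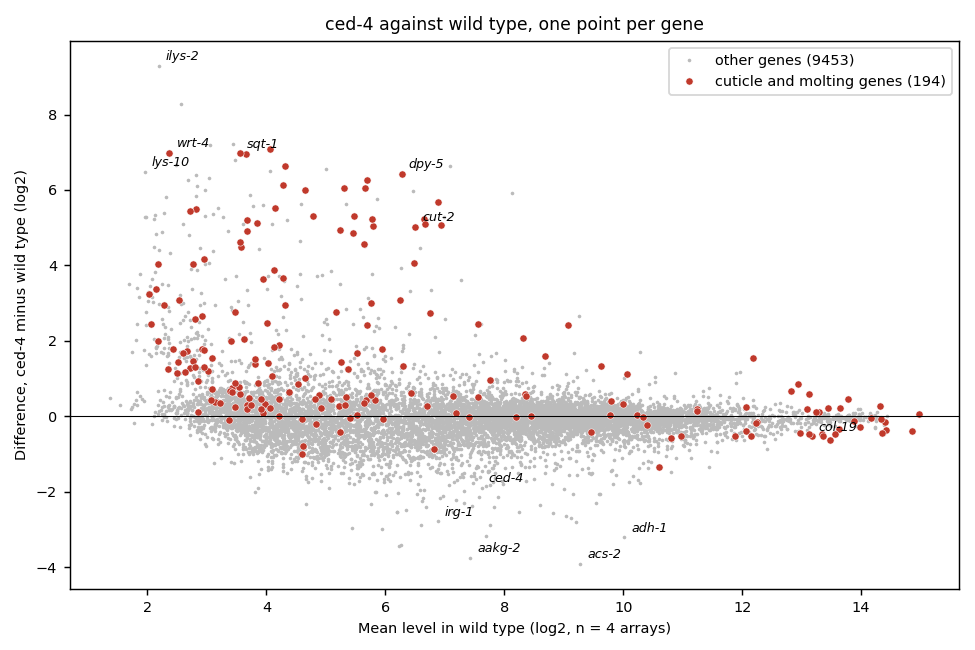
Difference between ced-4 and wild type (log2, vertical) against the mean level in wild type (log2, horizontal), 1 point per gene, with the 194 cuticle and molting genes in red. Most genes that rose by more than 4 were low in wild type, and the red points among them range up to 7.08.

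The rise of the cuticle and molting genes was large. At least a 2-fold rise was called for 90 of the 194, where 4.51% of all genes met the same criterion, and at least a 16-fold rise for 35, where 0.933% of all genes did. In 124 of the 194 all ced-4 arrays lay above all wild type arrays, against 10.7% of all genes. The mean level of the 194 genes was 8.14 on each of the ced-4 arrays and 6.71, 6.25, 6.35 and 6.78 on the wild type arrays. Wild type replicates 1 and 4 were the higher pair within wild type and replicates 2 and 3 the lower, and none came near the ced-4 level.

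Of the 111 genes that rose, 45 had a wild type mean below the filter level of 3.68, where values depend on the background correction and the size of a change is uncertain. Genes of that kind could pass the filter only through groups in which they were high. With no filter, 126 of all 308 cuticle and molting genes on the array were called higher and 13 lower, and the median difference over them was 0.297. Probe sets that can bind more than 1 transcript read 94 of the 194, which matters for collagens because their sequences are much alike. Among the 100 genes read by other probe sets, 58 rose. Further probe sets of the called cuticle and molting genes numbered 21, and 20 of them were called in the same direction as the first.

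Collagens made up most of the class. Of 144 collagen genes on the array 116 were tested, of which 60 were higher in ced-4 and 11 lower, with a median difference of 0.51. In 17 of the 60 the wild type mean was below 3.68. The largest rise was that of col-48, which stood at 11.10, 11.17 and 11.17 on the ced-4 arrays, against 4.38, 2.79, 3.11 and 5.96 on the wild type arrays. The ced-4 arrays were nearly equal, while the wild type arrays spread from the background to an intermediate level, and the difference was 7.08 (SE 0.69, adjusted p = 3.72e-07). col-49 rose by 6.97, col-97 by 6.63, col-104 by 6.28 and col-120 by 6.14, with adjusted p-values of 1.63e-07, 2.65e-05, 8.18e-08 and 7.09e-10. In each of them all 3 ced-4 arrays were above all 4 wild type arrays.

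Among the collagens whose mutation alters body shape, 15 of 17 rose and none was called lower, also at an unadjusted p under 0.05 in limma. sqt-1, a collagen in which mutations make short or rolling worms, had 10.51, 10.60 and 10.45 on the ced-4 arrays, against 3.49, 2.83, 3.37 and 4.52 on the wild type arrays. The wild type arrays were at or near background and the ced-4 arrays far above it, a difference of 6.97 (SE 0.39, adjusted p = 2.03e-10). dpy-5, a collagen needed for normal body length, had 12.67, 12.73 and 12.70 on the ced-4 arrays, against 7.34, 4.35, 4.59 and 8.81 on the wild type arrays. Here wild type itself ranged widely, with replicates 1 and 4 well above replicates 2 and 3, yet no wild type array reached the ced-4 values, a difference of 6.43 (SE 0.96, adjusted p = 0.000101). rol-6, in which mutations turn the worm about its axis, rose by 1.68 (SE 0.20, adjusted p = 4.29e-06), and lon-3, whose loss gives long worms, by 1.89 (SE 0.20, adjusted p = 1.45e-06).

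bli-1 and bli-2 encode collagens of the struts of the adult cuticle, and mutations in them blister it. bli-1 stood at 7.90, 8.59 and 8.45 on the ced-4 arrays, against 3.02, 2.38, 2.66 and 3.22 on the wild type arrays, a difference of 5.50 (SE 0.32, adjusted p = 2.76e-10). bli-2 stood at 5.39, 5.38 and 5.95 on the ced-4 arrays, against 3.12, 2.58, 2.38 and 3.58 on the wild type arrays, a difference of 2.66 (SE 0.27, adjusted p = 8.83e-07). In both genes wild type was at the background level on every array and ced-4 was clear of it. The furrow collagens, which mark the circumferential furrows, rose by less: dpy-8 by 1.53, dpy-3 by 1.26 and dpy-7 by 0.77, and all 5 tested members were called. Leaving out each array in turn gave 3 to 5 of these calls.

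Some collagens at high levels were not called, and others were lower. sqt-3 stood at 14.03, 14.15 and 14.19 on the ced-4 arrays, against 14.06, 14.08, 14.24 and 14.27 on the wild type arrays, where the groups overlapped and the difference of -0.04 was not called and turned its sign, to 0.035, with loess normalization between arrays. dpy-13 differed by 0.28 (adjusted p = 0.0931). The adult collagen col-19 was at 12.65, 12.62 and 12.63 on the ced-4 arrays, against 12.92, 13.20, 13.37 and 13.17 on the wild type arrays. Every ced-4 array was below every wild type array, by a small margin, and the difference was -0.53 (SE 0.12, adjusted p = 0.00442). Other collagens that fell were col-181 at -0.62, col-8 at -0.52, col-140 at -0.48, col-184 at -0.47 and col-106 at -0.45, with wild type means of 12.98 to 13.56. No cuticle or molting gene fell by 2-fold or more among those called.

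These falls were less firm than the rises. In a fit of the ced-4 and wild type arrays alone none of the 194 was called lower by limma, with 19 lower at an unadjusted p under 0.05, so that the calls of col-19, col-181, col-8, col-140 and col-184 depended on the spread estimated from the other groups. The call of col-106 ended without ced-4 replicate 1, at -0.42, and the number of lower genes was 6 to 8 without ced-4 replicate 1, 2 or 3 or wild type replicate 2 or 4.

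Cuticlins and other zona pellucida domain proteins of the cuticle numbered 39 on the array, of which 9 were tested: 6 rose, 3 of them from a wild type mean below 3.68, none was called lower, with none lower at an unadjusted p under 0.05 in limma either, and the median difference was 1.01. cut-2, an insoluble cuticlin, stood at 11.26, 11.71 and 11.59 on the ced-4 arrays, against 7.53, 5.77, 5.54 and 7.15 on the wild type arrays. Its wild type arrays split into replicates 1 and 4, which were higher, and replicates 2 and 3, which were lower, and the difference was 5.02 (SE 0.38, adjusted p = 1.26e-08). noah-1, a zona pellucida protein needed for molting, had 8.25, 7.80 and 7.94 on the ced-4 arrays, against 5.07, 3.73, 3.17 and 4.54 on the wild type arrays, a difference of 3.87 (SE 0.56, adjusted p = 6.34e-05). Its partner noah-2 rose by 1.76 (SE 0.25, adjusted p = 5.81e-05).

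Of 32 genes required for molting on the array 25 were tested, of which 14 rose and 1 fell, with a median of 1.07. In 8 of the 14 the wild type mean was below 3.68, and the single fall was called in 1 of the 7 fits that left out an array. mlt-8 had 8.90, 8.97 and 9.03 on the ced-4 arrays, against 3.92, 3.17, 3.76 and 4.51 on the wild type arrays, a difference of 5.13 (SE 0.35, adjusted p = 2.67e-09). mlt-11, a protease inhibitor, had 6.26, 5.11 and 5.20 on the ced-4 arrays, against 2.26, 2.01, 1.94 and 2.37 on the wild type arrays, a difference of 3.38 (SE 0.29, adjusted p = 7.67e-08). In both genes the groups were far apart. nas-7, an astacin metalloprotease, rose by 2.94 (SE 0.21, adjusted p = 5.24e-09), bli-5, a protease inhibitor of the cuticle, by 2.57 (SE 0.18, adjusted p = 3.66e-09) and mlt-9 by 1.45 (SE 0.18, adjusted p = 1.26e-05). lin-42, the period-like gene that paces the molts, rose by 1.30 (SE 0.25, adjusted p = 0.00145), a call that ended in the fit of the ced-4 and wild type arrays alone. nhr-23, the nuclear hormone receptor that drives molting gene expression, did not pass the test: it stood at 8.20, 8.13 and 8.17 on the ced-4 arrays, against 8.18, 8.30, 8.19 and 8.13 on the wild type arrays, with overlapping groups and a difference of -0.03 that turned its sign, to 0.030, with median centring.

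Enzymes that modify and cut procollagen had 3 of 11 higher, 1 lower and a median of 0.14. dpy-18, the catalytic subunit of a prolyl hydroxylase that modifies collagen, stood at 9.71, 9.20 and 9.05 on the ced-4 arrays, against 7.14, 6.81, 4.17 and 6.83 on the wild type arrays. Wild type replicate 3 was far below the other wild type arrays, and the ced-4 arrays were above all of them, a difference of 3.08 (SE 0.48, adjusted p = 0.000169). dpy-31, the procollagen C-proteinase, was the largest called fall of the class at -0.86 (SE 0.27, adjusted p = 0.0401). Its call ended without ced-4 replicate 2 or 3 or without wild type replicate 1, 2, 3 or 4, at differences of -0.92 to -0.69.

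The worm has many secreted proteins related to hedgehog, and transmembrane proteins related to patched, which are made largely by the hypodermis and are needed for molting. Of 81 on the array 34 were tested, of which 25 rose and 1 fell, with a median of 1.47. In 15 of the 25 the wild type mean was below 3.68, so that many of the tested genes passed the filter only through groups in which they were high. wrt-4, a warthog protein, stood at 9.52, 9.29 and 9.26 on the ced-4 arrays, against 2.21, 1.73, 1.88 and 3.64 on the wild type arrays. Wild type was at the background level on all 4 arrays, with replicate 4 the highest, and ced-4 was far above it, a difference of 6.99 (SE 0.38, adjusted p = 1.25e-10). grl-7, a ground-like protein, stood at 8.24, 7.96 and 8.29 on the ced-4 arrays, against 3.08, 2.42, 2.24 and 3.12 on the wild type arrays, a difference of 5.45 (SE 0.22, adjusted p = 2.78e-12). grl-15 rose by 4.04, hog-1 by 3.08, wrt-2 by 1.83 and qua-1 by 3.24, with adjusted p-values of 5.4e-10, 2.35e-10, 0.000165 and 7.19e-09. The patched-related gene ptr-4 rose by 2.94 (SE 0.14, adjusted p = 1.15e-11). The single fall, grd-3, was -0.52 from a wild type mean of 10.96, and its call ended without ced-4 replicate 1 or 3 or wild type replicate 4, at -0.50 to -0.47.

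The abu genes encode glutamine- and asparagine-rich secreted proteins, several of which are known from the lining of the pharynx, which is also shed at each molt. Of 11 on the array 9 were tested and these 9 rose, with a median of 4.92, 5 of them from a wild type mean below 3.68. abu-14 stood at 9.78, 9.69 and 9.52 on the ced-4 arrays, against 5.06, 3.15, 3.24 and 5.13 on the wild type arrays, a difference of 5.52 (SE 0.47, adjusted p = 5.85e-08). abu-8 stood at 10.56, 10.63 and 10.71 on the ced-4 arrays, against 4.58, 3.21, 6.08 and 4.71 on the wild type arrays, a difference of 5.99 (SE 0.43, adjusted p = 6.3e-09). Wild type replicate 2 was lowest for both and no wild type array came near ced-4. abu-6 and abu-15 rose by 5.32 and 5.32. Probe sets that can bind more than 1 transcript read 7 of the 9, including abu-6, abu-8 and abu-15, so these are not independent readings.

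**Figure D3:**
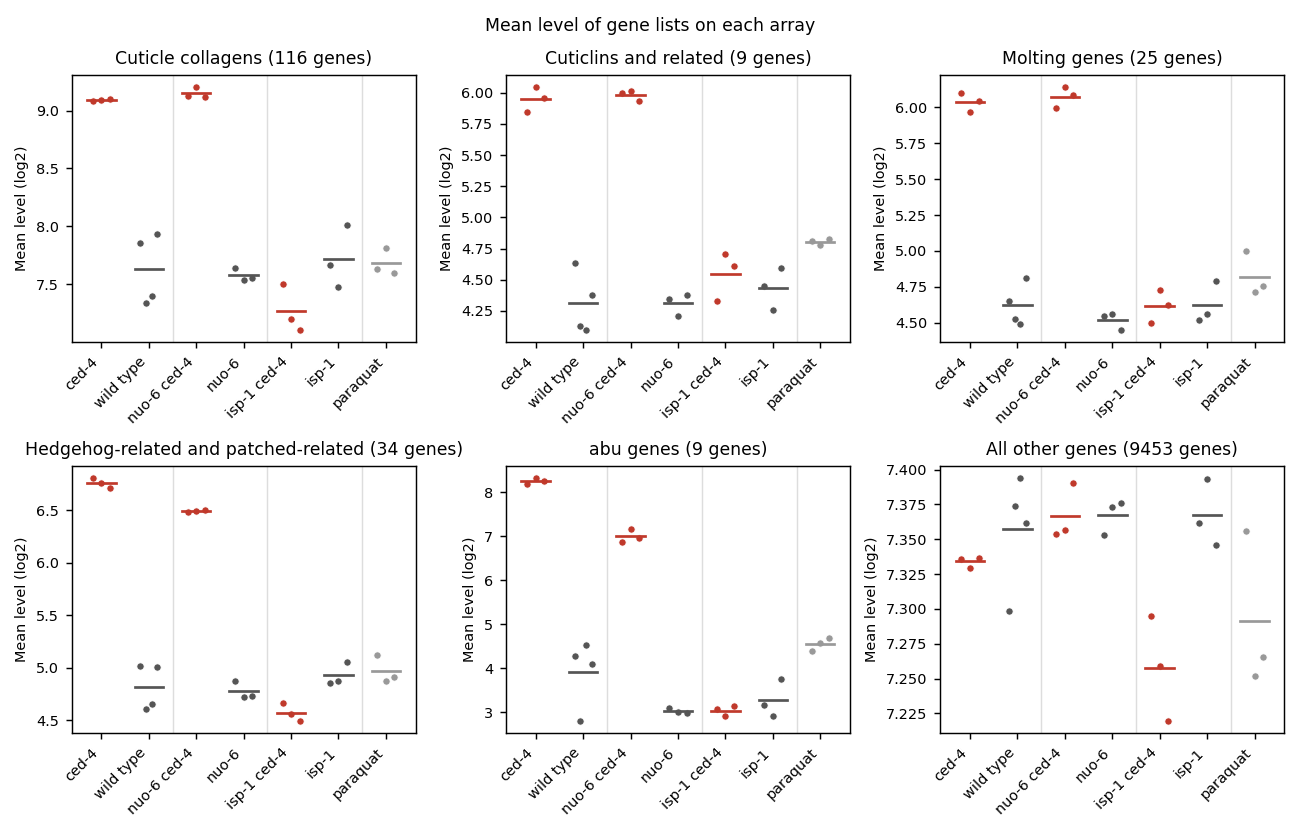
Mean log2 level of the tested genes of 5 lists and of all other genes (vertical) on each array (points) with the group mean (bars), for ced-4, wild type, the nuo-6 and isp-1 pairs and paraquat, with ced-4 mutants in red. The collagens, cuticlins, molting, hedgehog-related and abu lists are high on every ced-4 and nuo-6 ced-4 array, and isp-1 ced-4 lies with or below the remaining groups.

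Outside the cuticle and molting lists, the largest rise of all was that of ilys-2, an invertebrate-type lysozyme. It stood at 11.88, 11.32 and 11.26 on the ced-4 arrays, against 2.09, 2.06, 2.93 and 1.67 on the wild type arrays. Wild type was at the background level on all 4 arrays, and ced-4 was far above it, a difference of 9.30 (SE 0.83, adjusted p = 1.22e-07). Lysozymes degrade bacterial cell walls and many are made by the intestine. Of 16 on the array 13 were tested: 6 rose, 3 of them from a wild type mean below 3.68, none was called lower, with none lower at an unadjusted p under 0.05 in limma either, and the median was 1.09. lys-10 had 8.31, 8.55 and 8.48 on the ced-4 arrays, against 1.99, 1.60, 2.55 and 1.67 on the wild type arrays, with groups far apart, a difference of 6.49 (SE 0.20, adjusted p = 1.64e-13). ilys-3 stood at 9.39, 9.42 and 9.21 on the ced-4 arrays, against 2.99, 2.35, 6.87 and 2.90 on the wild type arrays. Its wild type replicate 3 was high but still below ced-4, and the difference was 5.56 (SE 0.87, adjusted p = 0.000175). lys-5 rose by 2.90 and lys-2 by 0.92, while lys-7, at 1.09 (adjusted p = 0.233), was not called and its groups overlapped.

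Single immune genes of other families moved too. clec-52, a C-type lectin, had 10.76, 10.51 and 10.43 on the ced-4 arrays, against 4.62, 3.97, 3.74 and 3.93 on the wild type arrays, a difference of 6.50 (SE 0.91, adjusted p = 4.48e-05). Of 63 tested C-type lectins 5 rose and 4 fell, shares near the 7.02% and 7.87% of all genes, and the median was -0.08. With wild type replicate 1 left out, 6 rose and 12 fell. The caenacin cnc-3 rose by 1.81 (SE 0.33, adjusted p = 0.000792), and 4 of 13 tested antimicrobial peptide genes of the epidermis rose and 1 fell. Leaving out each array in turn gave 1 to 4 rises in that list.

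Enzymes of xenobiotic metabolism changed in both directions. cyp-13A6, a cytochrome P450, stood at 10.41, 10.17 and 10.21 on the ced-4 arrays, against 6.68, 2.35, 2.53 and 2.34 on the wild type arrays. Wild type replicate 1 stood well above the other wild type arrays, and the ced-4 arrays stood above it, a difference of 6.79 (SE 0.70, adjusted p = 8.83e-07). Of 38 tested cytochrome P450 genes 5 rose and 2 fell, and of 46 UDP-glycosyltransferases 6 rose and 7 fell. When each array was left out the cytochrome P450 list gave 2 to 5 rises and at most 2 falls, and the UDP-glycosyltransferase list 4 to 9 rises, with 9 without wild type replicate 1, and 5 to 11 falls, with 11 without wild type replicate 3. ugt-61 had 9.59, 9.54 and 9.56 on the ced-4 arrays, against 6.96, 5.52, 5.08 and 5.54 on the wild type arrays, a difference of 3.78 (SE 0.37, adjusted p = 4.54e-07). ugt-16 rose by 2.95, ugt-6 by 2.85 and ugt-50 by 1.28. trx-3, a thioredoxin of the intestine, rose by 3.73 (SE 0.37, adjusted p = 4.34e-07).

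Several of the largest rises in the other class belong to families whose roles are little described. dbd-20 had 8.94, 8.74 and 9.16 on the ced-4 arrays, against 3.08, 2.30, 2.90 and 3.06 on the wild type arrays, a difference of 6.11 (SE 0.21, adjusted p = 6.42e-13). gmap-3 rose by 5.84 (SE 0.22, adjusted p = 7.94e-13), and gmap-1 and gmap-2 by 2.58 and 2.23. Of the dbd genes, a family picked after its values were seen, 8 of 9 tested rose, and of the gmap genes, picked likewise, 3 of 3. dct-5 rose by 5.82 (SE 0.18, adjusted p = 1.64e-13). suro-1, related to carboxypeptidases and known to modify the roller phenotype of a cuticle collagen, rose by 5.59 (SE 0.38, adjusted p = 2.81e-09) although it stood outside the cuticle list. nas-27, an astacin metalloprotease, rose by 3.52 (SE 0.17, adjusted p = 2.24e-11).

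Of 55 other genes that rose at least 16-fold, 30 had no name beyond their sequence, against 3496 of all 9453 other genes tested, and the shares were not tested against each other. R12E2.7 stood at 10.88, 10.84 and 10.81 on the ced-4 arrays, against 3.97, 1.77, 2.11 and 2.41 on the wild type arrays, a difference of 8.28 (SE 0.36, adjusted p = 6.72e-12). F49E12.10 stood at 10.61, 10.66 and 10.70 on the ced-4 arrays, against 3.25, 3.01, 4.43 and 3.04 on the wild type arrays, a difference of 7.23 (SE 0.86, adjusted p = 5.37e-06). Both were near the background in wild type and high in ced-4.

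A pair of genes tied to osmotic balance also rose: osm-7, a secreted protein whose loss activates the osmotic stress response, by 2.50 (SE 0.17, adjusted p = 2.25e-09), and ptr-23, a protein of the same response that also counts among the patched-related genes above, by 2.44 (SE 0.20, adjusted p = 2.52e-08). Of the 8 tested genes of that list 2 rose and 2 fell. Neuropeptide genes showed 11 rises and 1 fall among 62. nlp-89 rose by 2.20, nlp-17 by 1.72, nlp-55 by 1.26 and flp-24 by 0.76, with adjusted p-values from 4.69e-07 to 0.0037. Their median was 0.11. Without wild type replicate 1 the list showed 14 rises and 10 falls. Of 24 histone genes 5 rose and none was called lower by limma, also at an unadjusted p under 0.05. Leaving out each array in turn gave 2 to 6 histone rises, and 1 fall without wild type replicate 3. his-24, a linker histone, had 8.20, 8.43 and 7.89 on the ced-4 arrays, against 6.77, 5.09, 4.69 and 4.78 on the wild type arrays. Wild type replicate 1 was nearest to ced-4, and the difference was 2.84 (SE 0.42, adjusted p = 8.07e-05).

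The largest fall was that of acs-2, a fatty acyl-CoA synthetase of mitochondrial fat oxidation that rises in starved worms. It stood at 5.15, 5.26 and 5.69 on the ced-4 arrays, against 7.38, 9.26, 10.63 and 9.84 on the wild type arrays. The ced-4 arrays were below every wild type array, among which replicate 1 was the lowest, and the difference was -3.91 (SE 0.58, adjusted p = 8.5e-05). aakg-2, a gamma subunit of the energy sensor AMP-activated kinase, had 3.79, 4.08 and 3.16 on the ced-4 arrays, against 7.94, 7.60, 6.80 and 7.39 on the wild type arrays, with well separated groups, a difference of -3.75 (SE 0.38, adjusted p = 5.91e-07). Of 36 genes of lipid metabolism 8 were lower and 1 higher, with a median of -0.22. The number lower was 5 or 6 without each of the other arrays and 11 without wild type replicate 1. The fatty acid desaturases fat-3 and fat-6 fell by 0.94 and 0.52, with adjusted p-values of 0.000688 and 0.000942. fat-7, a desaturase close to fat-6, differed by -0.60 and did not pass the test (adjusted p = 0.476).

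adh-1, an alcohol dehydrogenase, stood at 6.90, 6.98 and 6.54 on the ced-4 arrays, against 7.43, 9.95, 12.84 and 9.83 on the wild type arrays. The wild type arrays spanned a wide range and replicate 1 came close to ced-4, and the difference was -3.20 (SE 0.73, adjusted p = 0.00601). idpp-15 and idpp-14 fell by 3.43 and 2.96 (adjusted p = 0.00155 and 0.00491). Of the 9 tested genes of their family, picked after its values were seen, 5 were higher and 3 lower, over a range of -3.43 to 2.98. idpp-15 had 2.91, 2.66 and 2.80 on the ced-4 arrays, against 3.40, 6.35, 7.72 and 7.42 on the wild type arrays. Replicate 1 of wild type was low like ced-4 and replicates 2 to 4 were high. vap-2, a venom allergen-like protein, fell by 2.81 (adjusted p = 0.00342) and nas-20, an astacin metalloprotease, by 2.07 (adjusted p = 0.000958), with wild type replicate 1 again the lowest wild type array in both. The calls of adh-1, idpp-14, idpp-15 and fat-6 ended in the fit of the ced-4 and wild type arrays alone, and whether these falls and the position of wild type replicate 1 have a common source was not tested.

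Immune and stress genes were also among the falls. irg-1, an infection response gene, had 4.17, 3.74 and 4.36 on the ced-4 arrays, against 6.56, 5.57, 8.02 and 7.36 on the wild type arrays, with separate groups, a difference of -2.79 (SE 0.44, adjusted p = 0.000169). pgp-5, a P-glycoprotein transporter, had 3.55, 3.66 and 3.89 on the ced-4 arrays, against 7.48, 5.70, 6.53 and 6.66 on the wild type arrays, a difference of -2.90 (SE 0.30, adjusted p = 8.99e-07). Of the genes with a sequence name only, C49G7.12 fell by 3.41 (adjusted p = 9.38e-05) and Y69A2AR.25 by 2.99 (adjusted p = 3.25e-06). The small heat shock protein gene hsp-43 fell by 1.02, the glutathione S-transferase gst-13 by 0.78 and the nuclear hormone receptor nhr-88 by 1.51, with adjusted p-values of 0.00307, 0.00162 and 0.000491. Nuclear hormone receptors as a family gave 10 falls and 1 rise among 93, where 7.87% of all genes fell and 7.02% rose, with a median of -0.18. They gave 15 falls and 5 rises without wild type replicate 1, and without each of the other arrays 3 to 7 falls.

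A pair of genes often read as reporters of oxidative stress were not called. sod-3, a mitochondrial superoxide dismutase, differed by 0.25 (adjusted p = 0.611) and gst-4, a glutathione S-transferase, by -0.55 (adjusted p = 0.475). Of 62 respiratory chain genes 8 were lower, with a median of -0.11, a number that was 10 without wild type replicate 1 and at most 6 without each of the other arrays. Of 61 ribosomal protein genes limma called none, with 2 lower at an unadjusted p under 0.05 and a median of -0.02. Leaving out wild type replicate 1 gave 1 called higher and 2 lower.

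In ced-4 against wild type, genes of the death pathway itself were not called apart from ced-4. Of 9 tested genes of that list ced-4 was the only one called, 1 other reached an unadjusted p under 0.05, and 1 was called higher without wild type replicate 1. The caspase gene ced-3 was near the background, at 2.45 ± 0.14 in ced-4 and 2.69 ± 0.53 in wild type (SD, n = 3 and 4), and did not pass the test (adjusted p = 0.607). It was higher in isp-1 ced-4 than in isp-1, by 2.16 (adjusted p = 0.000139). In that comparison 5 of the 9 genes were called higher and 1 lower, where 15.5% of all genes were higher. ced-9, which restrains CED-4, was at 6.16 ± 0.12 in ced-4 and 6.28 ± 0.32 in wild type (SD, n = 3 and 4, adjusted p = 0.744). Among 21 genes of engulfment and corpse clearance 5 fell and 1 rose, with 2 or 3 falls on leaving out a single ced-4 array or wild type replicate 2, 3 or 4. nuc-1, the lysosomal nuclease that degrades the DNA of dead cells, had 10.20, 10.18 and 10.28 on the ced-4 arrays, against 11.06, 10.85, 11.14 and 10.95 on the wild type arrays. All ced-4 arrays were lower, by a difference of -0.78 (SE 0.18, adjusted p = 0.00672). ina-1, an integrin that acts in engulfment, rose by 1.24 (SE 0.17, adjusted p = 4.53e-05). The engulfment receptor gene ced-1 differed by -0.68 (adjusted p = 0.128), the mitochondrial nuclease gene cps-6 by -0.11 (adjusted p = 0.598) and psr-1 by -0.15 (adjusted p = 0.531), and none of these was called.

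Genes that mark adult hermaphrodites were high in both groups: the yolk protein gene vit-2 was at 13.23 ± 0.10 in ced-4 and 13.50 ± 0.13 in wild type (SD, n = 3 and 4, adjusted p = 0.253). Of 11 regulators and markers of the hypodermis 4 rose, among them dpy-7 and wrt-2 that also count as cuticle and molting genes. When each array was left out 2 to 4 of the 11 rose. Of 29 intestinal genes 4 fell and of 24 muscle genes 3 fell. Without wild type replicate 1, 10 muscle genes and 4 intestinal genes fell, and without each of the other arrays 1 or 2 intestinal genes fell and the muscle gene calls ended. Of 29 oocyte genes 1 was lower, of 29 germline genes 1 was lower and of 57 sperm genes 5 were lower, where 7.87% of all genes were lower. Without wild type replicate 1 these numbers were 3, 1 and 10, and without each of the other arrays at most 4 sperm genes were lower. The mean levels of the sperm genes were 10.05 to 10.10 in ced-4 and 10.10 to 10.62 in wild type. The germline regulator gld-1 was at 11.45 ± 0.09 in ced-4 and 11.56 ± 0.13 in wild type, the yolk receptor gene rme-2 at 11.41 ± 0.06 in ced-4 and 11.19 ± 0.22 in wild type and the major sperm protein gene msp-142 at 13.24 ± 0.03 in ced-4 and 13.45 ± 0.23 in wild type (SD, n = 3 and 4), none of them called. The body muscle myosin gene myo-3 differed by 0.35 (adjusted p = 0.232). Of 12 genes of the pharynx 3 rose and 5 fell, with 1 fall when any array but wild type replicate 1 was left out. Wild type replicate 1 was the lowest array in them: the mean of the 12 was 5.67 to 5.89 in ced-4 and 4.99, 6.37, 6.78 and 6.79 in wild type. myo-2, a pharyngeal myosin, was called at -1.81 (SE 0.57, adjusted p = 0.0388), but wild type replicate 1, at 5.58, lay among or below the ced-4 arrays, at 5.85, 6.12 and 5.85, and the call ended without ced-4 replicate 1, 2 or 3 or wild type replicate 2, 3 or 4, at -1.90 to -1.47. The part of the pharynx and muscle genes in the results above was not tested.

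The remaining lists held few calls, and the counts depended on wild type replicate 1. With all arrays, 2 of 19 superoxide and peroxide enzymes and 1 of 16 synaptic genes were called higher. Without that array there were 3 rises and 4 falls among these enzymes and 1 rise and 3 falls among the synaptic genes. The HIF-1 associated genes had 1 rise and 1 fall among 11 (2 and 1 without it), F-box genes 2 and 6 among 69 (7 and 9), transthyretin-related genes 3 and 3 among 36 (5 and 9), and other astacin metalloproteases 2 and 2 among 7 (2 and 4). Lower calls were made for 3 of 27 glutathione S-transferases (3 without it), 2 of 13 heat shock genes (4), 1 of 18 mitochondrial chaperones and proteases (3, with 1 rise), 1 of 14 basement membrane genes (1, with 1 rise) and 1 of 33 proteasome subunits (7). limma called none of 10 heterochronic genes, with 2 higher and 1 lower at an unadjusted p under 0.05, none of 28 replication genes, with 1 higher and 1 lower, and none of 14 insulin-like genes, with 1 higher. Without that array 1 heterochronic gene was called higher, and 3 replication genes and 1 insulin-like gene lower.

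**Figure D4:**
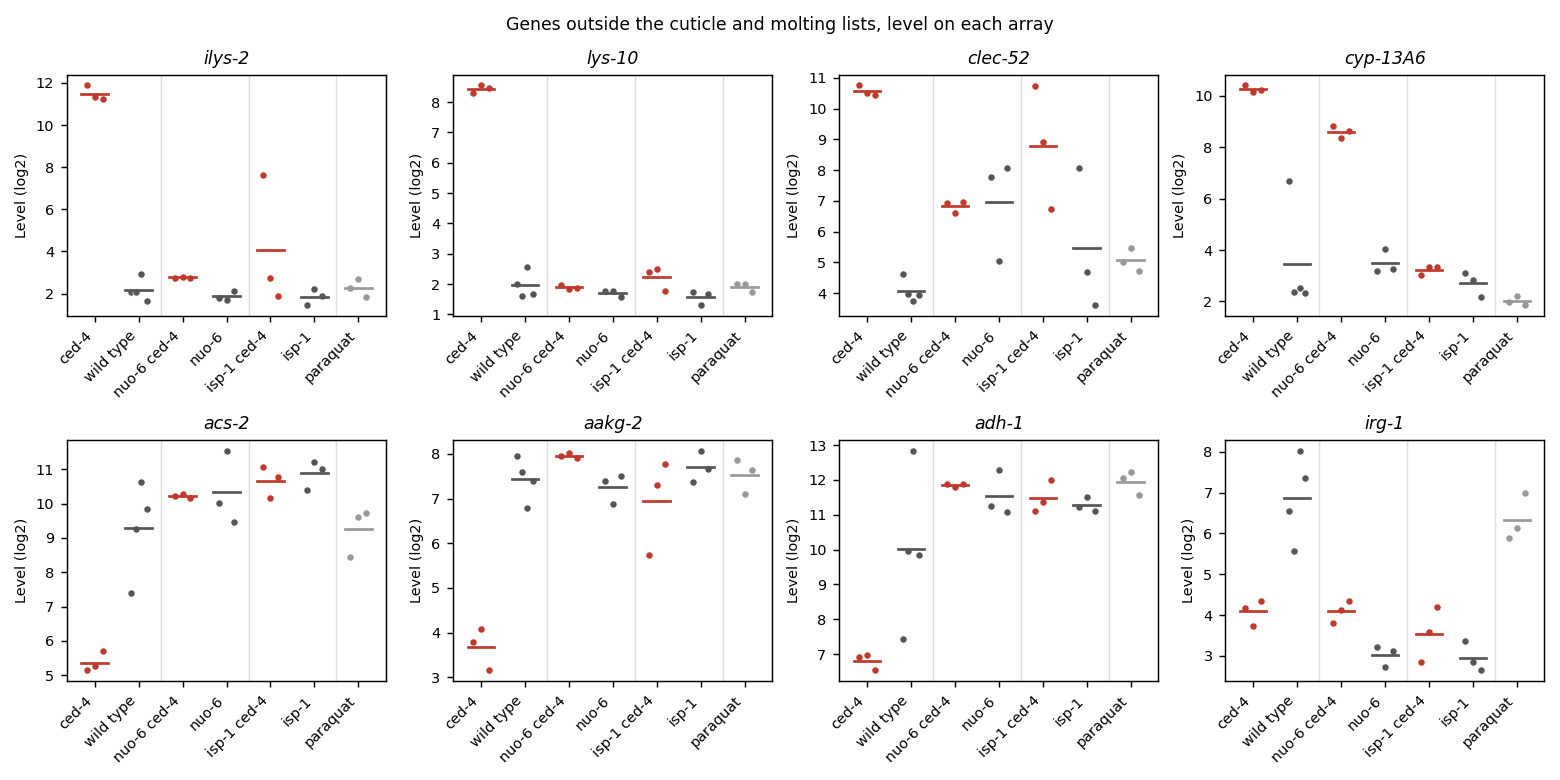
Log2 level (vertical) of 8 genes outside the cuticle and molting lists on each array (points) with group means (bars), for ced-4, wild type, the nuo-6 and isp-1 pairs and paraquat, with ced-4 mutants in red. ilys-2 and lys-10 are high in ced-4, acs-2, aakg-2 and adh-1 are low in ced-4 but not in the groups with a mitochondrial mutation, and irg-1 is low in every group except wild type and paraquat.

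The ced-4 mutation was next followed into the mitochondrial mutants, in comparisons that share no array with ced-4 against wild type: the nuo-6 pair sets nuo-6 ced-4 against nuo-6 alone, and the isp-1 pair isp-1 ced-4 against isp-1 alone. In the nuo-6 pair 12.2% of genes were higher in the double mutant and 16.6% lower. The cuticle and molting genes were mostly called in the same direction as in ced-4: 120 of 194 were higher and 11 lower, and 101 were higher in both comparisons, which is 91% of the 111 and 84.2% of the 120. In the isp-1 pair, where 15.5% of all genes were higher and 18% lower, 8 cuticle and molting genes were higher and 46 lower. Other lists shifted in that pair too, where limma called 51 of 57 sperm genes lower and 0 higher. The mean level of the sperm genes was 8.01 ± 1.15 in isp-1 ced-4 and 9.79 ± 0.19 in isp-1 (SD, n = 3). Of 62 neuropeptide genes 35 were lower and 3 higher, and of 24 muscle genes 16 were lower and 1 higher. Of 28 replication genes 19 were higher and 0 lower by limma. The part of these shifts in the cuticle and molting counts was not tested. Without isp-1 ced-4 replicate 2, 2748 probe sets were called in the isp-1 pair, against 4193 with it (33.2%). Of the 111 that rose in ced-4, 2 rose there (1.8% of the 111 and 25% of the 8) and 18 fell.

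The interaction tests whether the ced-4 difference changes with the second mutation, as the difference in the double mutant pair minus that in ced-4 against wild type. With isp-1 it was called for 18.4% of genes (10.6% with a negative and 7.74% with a positive value), and with nuo-6 for 11.4% (4.9% negative and 6.49% positive). Of the 194 cuticle and molting genes 112 had a negative and 3 a positive interaction with isp-1, and 9 had a negative and 3 a positive interaction with nuo-6. The interaction subtracts the same ced-4 and wild type values that gave the calls above, so a gene called higher there leans towards a negative interaction, and no count of interactions among the called genes is given. The counts over the 194 genes, of which 111 were called higher in ced-4, carry the same lean with both mutations. Across the 194 genes the ced-4 differences correlated at r = 0.924 with those of the nuo-6 pair and at r = -0.168 with those of the isp-1 pair. These correlations run across genes, which share arrays and are not independent replicates. Genes at background in wild type could pass the filter only through groups in which they were high, so the filter also shapes these correlations. Without wild type replicate 1, 120 of the 194 had a negative interaction with isp-1 and 14 with nuo-6. The number of probe sets with a called interaction, 1372 with nuo-6 (10.9%), was 798 to 832 without a ced-4 array, 820 to 855 without a nuo-6 ced-4 array and 866 without nuo-6 replicate 3. With isp-1 it was 2362 (18.7%), against 1534 and 1519 without ced-4 replicates 2 and 3 and 1371 and 1503 without isp-1 ced-4 replicates 2 and 3.

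sqt-1 shows the pattern. It stood at 9.56, 9.71 and 9.40 on the nuo-6 ced-4 arrays, against 3.43, 3.13 and 2.79 on the nuo-6 arrays. On the isp-1 ced-4 arrays it stood at 3.06, 2.94 and 3.05, against 2.83, 3.57 and 4.72 on the isp-1 arrays. The ced-4 and nuo-6 ced-4 arrays were high and all others of these groups were at 4.72 or lower, and the interaction with isp-1 was -7.66 (adjusted p = 2.5e-08). col-48 differed by 6.69 (adjusted p = 2.71e-06) in the nuo-6 pair and by -1.18 (adjusted p = 0.229) in the isp-1 pair, dpy-5 by 5.71 (adjusted p = 0.000508) and -2.30 (adjusted p = 0.094), and mlt-8 by 4.93 (adjusted p = 1.99e-08) and -0.29 (adjusted p = 0.58). Their interactions with isp-1 were -8.26, -8.73 and -5.42, each with an adjusted p of 0.000299 or lower. bli-1, grl-7 and abu-14 gave interactions with isp-1 of -5.65, -6.07 and -6.34. wrt-4 rose in the nuo-6 pair too, by 3.36 (adjusted p = 9.44e-06), but less than in ced-4, with an interaction of -3.63 (adjusted p = 0.00119).

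Exceptions stood on both sides. noah-1 rose in the isp-1 pair as well, by 2.04 (adjusted p = 0.0139), and its interaction with isp-1 was not called. The adult collagen col-19 was lower in all 3 comparisons, with differences of -0.39 (adjusted p = 0.0257) in the nuo-6 pair and -0.39 (adjusted p = 0.0252) in the isp-1 pair. The ced-4 transcript itself was also lower in both pairs, with differences of -2.50 (adjusted p = 8.32e-09) in the nuo-6 pair and -1.87 (adjusted p = 9.79e-06) in the isp-1 pair.

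The largest negative interactions with isp-1 were those of dpy-5, of R12E2.7 at -8.68 (adjusted p = 2e-09), of H23N18.5 at -8.65 (adjusted p = 1.71e-07) and of F41F3.3 at -8.53 (adjusted p = 2.14e-05). H23N18.5 and F41F3.3 had risen by 7.20 and 5.91 in ced-4, and all 4 also rose in the nuo-6 pair. Other genes with a large negative interaction were dbd-20, which rose by 6.30 in the nuo-6 pair and had an interaction with isp-1 of -6.39, gmap-3 (5.13 and -6.25) and cyp-13A6 (5.11 and -6.25). Apart from dpy-5, these genes stood outside the cuticle and molting lists.

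Among the other genes the rises recurred in part with nuo-6 only, and the falls in part with both mutations. Of the 566 that rose in ced-4, 269 rose in nuo-6 ced-4, which is 47.5% of the 566 and 25.4% of the 1059 that rose there. Among all genes 12.2% rose in that pair, and 10 of the 566 fell. In isp-1 ced-4 75 rose, or 13.3% of the 566 and 5.06% of 1483. That share is below the 15.5% of all genes that rose there, and 66 of the 566 fell. Of the 746 that fell, 301 fell in nuo-6 ced-4 (40.3% of the 746 and 18.9% of 1591) and 57 rose. In isp-1 ced-4 268 fell (35.9% of the 746 and 15.8% of 1695) and 24 rose. Among all genes 16.6% and 18% fell in these pairs.

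The lysozymes differed between the backgrounds. In the nuo-6 pair limma called none of the 13 tested higher and 3 lower, with a median of -0.24. In the isp-1 pair 6 were higher and none lower, with a median of 0.85, where 15.5% of all genes were higher. Of the 6 that rose in ced-4, 3 also rose in the isp-1 pair. ilys-2 stood at 2.76, 2.80 and 2.75 on the nuo-6 ced-4 arrays, against 1.77, 1.71 and 2.13 on the nuo-6 arrays. On the isp-1 ced-4 arrays it stood at 7.63, 2.75 and 1.89, against 1.47, 2.22 and 1.88 on the isp-1 arrays. A single isp-1 ced-4 array, replicate 1, was high, and neither pair was called. Its interactions were -8.40 (adjusted p = 0.000781) with nuo-6 and -7.06 (adjusted p = 0.000604) with isp-1. lys-10 gave interactions of -6.31 and -5.84, lys-5 of -2.78 and -2.86 and F49E12.10 of -6.91 and -5.36, all called. clec-52 stood at 6.83 ± 0.19 in nuo-6 ced-4 against 6.96 ± 1.67 in nuo-6, and 8.79 ± 2.00 in isp-1 ced-4 against 5.45 ± 2.32 in isp-1 (SD, n = 3), and its interaction with nuo-6 was -6.64 (adjusted p = 0.00577). Its rise in the isp-1 pair, 3.34, was called (adjusted p = 0.0138), and its interaction with isp-1 was not. ugt-61 stood at 9.47 ± 0.06 in nuo-6 ced-4 against 9.02 ± 0.16 in nuo-6, and 7.59 ± 0.80 in isp-1 ced-4 against 8.28 ± 0.55 in isp-1, all above the wild type mean of 5.78, with interactions of -3.33 and -4.48.

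The falls of acs-2 and aakg-2 were not called with either mitochondrial mutation. acs-2 stood at 10.22 ± 0.07 in nuo-6 ced-4 against 10.33 ± 1.08 in nuo-6, and 10.66 ± 0.46 in isp-1 ced-4 against 10.87 ± 0.42 in isp-1 (SD, n = 3). Its interactions were 3.79 (adjusted p = 0.0108) with nuo-6 and 3.69 (adjusted p = 0.00614) with isp-1. aakg-2 stood at 7.95 ± 0.06 in nuo-6 ced-4 against 7.25 ± 0.33 in nuo-6, and 6.94 ± 1.07 in isp-1 ced-4 against 7.70 ± 0.35 in isp-1, with interactions of 4.45 (adjusted p = 0.000186) and 2.99 (adjusted p = 0.00112). For both genes the double mutants were near the level of wild type and the single ced-4 mutant alone was low. adh-1 gave interactions of 3.51 (adjusted p = 0.0442) with nuo-6 and 3.41 (adjusted p = 0.0355) with isp-1, but these calls ended on leaving out any of several single arrays, at 3.28 to 3.60 with nuo-6 and 3.15 to 3.52 with isp-1.

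For irg-1, pgp-5, C49G7.12 and Y69A2AR.25 both mitochondrial single mutants had mean levels below 3.68, the background level, and below wild type. The difference from wild type was not tested here. A gene at background has little room to fall further in the double mutant. The positive interactions given below therefore cannot show whether the ced-4 fall changes with the second mutation. irg-1 stood at 4.09 ± 0.26 in nuo-6 ced-4 against 3.02 ± 0.26 in nuo-6, and 3.54 ± 0.67 in isp-1 ced-4 against 2.96 ± 0.37 in isp-1 (SD, n = 3). pgp-5 stood at 2.29 ± 0.25 in nuo-6 ced-4 against 2.52 ± 0.19 in nuo-6, and 2.83 ± 0.25 in isp-1 ced-4 against 2.23 ± 0.33 in isp-1. Wild type, at 6.88 ± 1.06 for irg-1 and 6.59 ± 0.73 for pgp-5, was the higher group in both genes. Their interactions were 3.86 and 3.37 for irg-1, and 2.67 and 3.49 for pgp-5, with nuo-6 and isp-1 in that order. C49G7.12 gave 4.37 and 5.15, and Y69A2AR.25 gave 3.00 and 2.72.

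Some genes differed between the double and single mitochondrial mutants without differing between ced-4 and wild type. cth-1, a cystathionine gamma-lyase, was at 11.24 ± 0.10 in nuo-6 ced-4 and 5.77 ± 0.22 in nuo-6, and its interaction with nuo-6 was 5.69 (adjusted p = 0.0054). argk-1, an arginine kinase, was at 10.49 ± 0.13 and 5.47 ± 0.06 in the same groups, with an interaction of 4.75 (adjusted p = 0.00188). Neither was called in ced-4 against wild type, at -0.22 and 0.27, and in both genes wild type replicate 3 was well below the other wild type arrays. Both were also higher in the isp-1 pair, cth-1 by 2.25 (adjusted p = 0.0424) and argk-1 by 2.51 (adjusted p = 0.00283). The interaction of argk-1 with isp-1 was 2.24 (adjusted p = 0.0497), and that of cth-1 was not called. With isp-1 the C-type lectins clec-174, clec-190 and clec-223 had interactions of 4.18, 4.14 and 4.07. clec-190 was at 6.96 ± 0.44 in isp-1 ced-4 and 2.63 ± 0.24 in isp-1. clec-223 had fallen by 1.89 in ced-4 (adjusted p = 0.00666), a call that ended in the fit of the ced-4 and wild type arrays alone. his-24 rose in all 3 comparisons, by 2.19 in the nuo-6 pair and 4.49 in the isp-1 pair, and fat-6 fell in all 3, by 0.37 and 0.39 in these pairs.

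**Figure D5:**
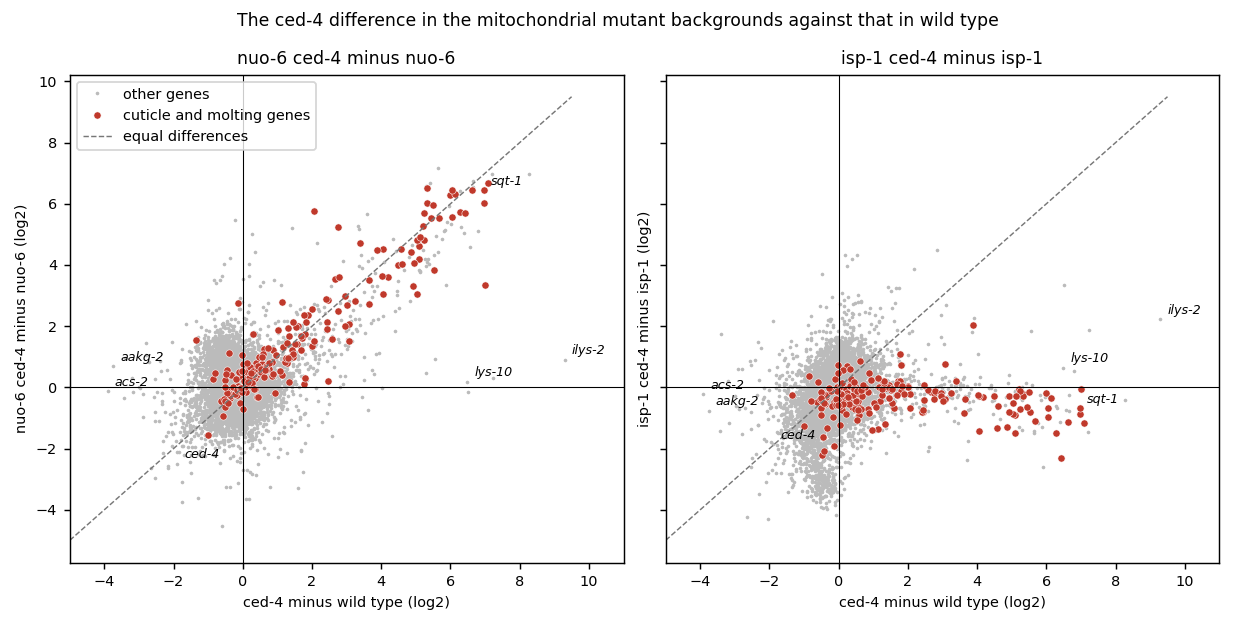
The ced-4 difference in the nuo-6 pair (left) and the isp-1 pair (right), as double minus single mutant (log2, vertical), against ced-4 minus wild type (log2, horizontal), 1 point per gene, with cuticle and molting genes in red and a dashed line of equal differences. The red points follow the line on the left and lie near or below 0 on the right, and ilys-2 and lys-10 lie far below the line on both sides.

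The called genes lay on all chromosomes, from 10.6% of the tested genes on chromosome I to 22% on chromosome X, where 162 were higher and 105 lower of 1215. On chromosome III, which carries ced-4, 74 were higher and 106 lower of 1591, or 11.3%.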

How the data were processed

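The deposited values are log2 intensities, 1 per probe set and array, made by the authors with GCRMA per the submitters' processing notes. GCRMA subtracts background by probe sequence, equalises the arrays and summarises the probes of a set. Its version was not given in the labels, nor whether all 22 arrays were processed together, and the log base was read from the range, 0.926 to 15.25. Scanner files were not used here.

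Of 22548 probe sets that are not controls, 12639 reached the table median of 3.68 on at least 3 arrays. Symbols came from the platform annotation, updated through gene IDs where possible. Of the tested probe sets 11963 had 1 symbol, 464 several and 212 none, and a gene was read by the brightest probe set with its symbol alone. Probe sets named as able to bind several transcripts (ending in _s_at or _x_at) cannot separate near-identical genes. Levels of different probe sets are not compared, since GCRMA values are not per length.

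limma 3.58.1 (R 4.3.3) fitted a mean for each of 7 groups over 22 arrays, with Benjamini-Hochberg adjusted p-values over all tested probe sets for each of 5 comparisons, and a call means an adjusted p under 0.05. SE is the moderated standard error. The script was tested on simulated data. Alternatives were other filters, loess, median centring, fits of the compared groups alone, trended variances, the replicate number as a block, a molting covariate and leaving out each array.

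The members and gene lists were chosen with earlier results of these data known. Named genes are ced-4, the 8 largest rises and falls with separated arrays and a gene name in each class, 2 each way with a sequence name only, up to 6 of the smallest p in a described list, the 4 largest interactions each way, and list members whose role is the question. No scan date was used here, so a batch was not tested.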

Additional observations from a re-analysis of the deposited data

Results flagged for a closer look

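In 8 of the 116 genes named, a wild type array lay farther from the other 3 than Dixon's 95% critical value allows, and chance flags about 1 in 20. Replicate 3 was far below the others for dpy-18 at 4.17, cth-1 at 7.79 and argk-1 at 6.17, and far above them for ilys-3 at 6.87. Replicate 1 was far below the others for col-181 at 13.08 and nas-20 at 8.04, and far above them for cyp-13A6 at 6.68. Replicate 4 was far above the others for hsp-43 at 9.87. The part of these arrays in the differences was not tested beyond leaving each out in turn.

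The ced-4 difference changed with the second mutation, by the interaction test, for 1372 probe sets with nuo-6 and 2362 with isp-1. Genes below were among them, each value being the difference in the double mutant pair minus that in ced-4 against wild type (log2). Genes that rose in ced-4 and had a negative interaction with both mutations were ilys-2 (-8.40 with nuo-6 and -7.06 with isp-1), lys-10 (-6.31 and -5.84), F49E12.10 (-6.91 and -5.36), wrt-4 (-3.63 and -7.05), ugt-61 (-3.33 and -4.48) and lys-5 (-2.78 and -2.86). clec-52 did so with nuo-6 at -6.64, and its interaction with isp-1 was not called.

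Cuticle and molting genes with a negative interaction with isp-1 were dpy-5 at -8.73, col-48 at -8.26, sqt-1 at -7.66, abu-14 at -6.34, grl-7 at -6.07, bli-1 at -5.65 and mlt-8 at -5.42. Genes outside these lists gave values of the same size, with R12E2.7 at -8.68, H23N18.5 at -8.65, F41F3.3 at -8.53, dbd-20 at -6.39, gmap-3 at -6.25 and cyp-13A6 at -6.25.

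Genes that fell in ced-4 and had a positive interaction with both mutations were aakg-2 (4.45 with nuo-6 and 2.99 with isp-1), C49G7.12 (4.37 and 5.15), irg-1 (3.86 and 3.37), acs-2 (3.79 and 3.69), adh-1 (3.51 and 3.41), Y69A2AR.25 (3.00 and 2.72) and pgp-5 (2.67 and 3.49). idpp-14 and idpp-15 also fell, and their interactions were not called. irg-1, C49G7.12, Y69A2AR.25 and pgp-5 had mean levels below 3.68 in both mitochondrial single mutants, so a further fall could hardly be seen there. Because the interaction subtracts the same ced-4 and wild type values, it leans negative for genes that rose and positive for genes that fell. The adh-1 interactions were not called when any of several single arrays was left out. cth-1 and argk-1, which were not called in ced-4, had interactions of 5.69 and 4.75 with nuo-6, and argk-1 had one of 2.24 with isp-1. The lectin genes clec-174, clec-190 and clec-223 had interactions of 4.18, 4.14 and 4.07 with isp-1.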

How the results depend on the processing

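Of the 95 named genes called in ced-4 against wild type none changed direction with loess, median centring, the block or leaving out an array. Other filters, the fit of the compared groups alone and trended variances leave the difference itself as it is and could not turn a sign. Genes picked for arrays that do not overlap could not change direction when an array was left out either. Cyclic loess, trended variances and a filter at 6 on 3 arrays (77 of them tested) ended no call. The fit of the compared groups alone ended 15 calls, the replicate block 4 (dpy-31, grd-3, col-106 and myo-2), no filter and median centring 1 each, and leaving out an array 1 to 3. These calls were not counted gene by gene with the molting covariate or with unshared probe sets. The ced-4 transcript difference was -1.99 to -1.79 when an array was left out.

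Replicate numbers did not pair the arrays: correlations of same-numbered deviations were 0.115, -0.022 and 0.072. With the replicate number as a block 1295 probe sets were called, 647 of them lower, with 5 cuticle and molting genes and 373 other genes lower, and 897 interactions with nuo-6. Only wild type has a replicate 4, so the block takes up that array and is not a separate check of the differences. They were the same as without that array, with dpy-31 at -0.81, grd-3 at -0.47 and myo-2 at -1.53 in both fits.

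With the filter at 6, 1326 probe sets were called and 490 were higher, with 67 cuticle and molting genes and 334 other genes higher and 701 interactions with nuo-6, fewer probe sets being tested. With no filter the median difference was 0.297 for cuticle and molting genes and 0.0097 for other genes, and for other genes it was -0.016 with loess and 0.0147 with median centring. In the fit of the compared groups alone 853 probe sets were called, 290 of them lower, with 363 other genes higher, 184 lower and 0 cuticle and molting genes lower by limma (19 at an unadjusted p under 0.05). That fit gave 2088 calls in the isp-1 pair and 1307 interactions with isp-1. With the molting covariate 11 probe sets were called, all 11 higher and 0 lower by limma (326 at an unadjusted p under 0.05), with 8 other genes higher and 0 lower (240 at an unadjusted p under 0.05). With unshared probe sets only, an alternative chosen after seeing the data, 64 cuticle and molting genes were higher and 8 lower, and 370 other genes higher.

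Leaving out an array gave 1163 to 3404 called probe sets, 598 to 1294 higher and 564 to 2110 lower. Without ced-4 replicate 1, 2 or 3, 1251, 1156 or 1203 of the 1999 kept their call and direction, and without wild type replicate 1, 2, 3 or 4, 1956, 1421, 1439 or 1326. Cuticle and molting genes were higher in 102 to 124 cases and lower in 6 to 13, other genes higher in 385 to 925 and lower in 318 to 1411. Their medians were 0.712 to 0.833 and -0.0653 to -0.0245. The isp-1 pair gave 2748 to 4289 calls, the nuo-6 pair 2780 to 3528, and the interactions 1371 to 2956 with isp-1 and 798 to 1959 with nuo-6.

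Genes not called that changed sign were sqt-3 (0.035 with loess, 0.016 with median centring, -0.078 to 0.0034 without an array), nhr-23 (0.0010 with loess, 0.030 with median centring, -0.054 to 0.0033 without an array), ced-9 (-0.24 to 0.019 without an array, positive without wild type replicate 2), cth-1 (0.030 with the block, -0.94 to 0.039 without an array, positive without wild type replicates 2 and 4) and argk-1 (-0.39 to 0.55 without an array, negative without wild type replicate 3). The number of arrays limits the precision, and values under 3.68 are near background, where the size of a change is uncertain.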
